A study of Homo sapiens with 15 samples.

Results

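SK-N-AS stood apart from the other 4 neuroblastoma lines of the series in 1421 genes: 714 genes were higher in SK-N-AS than in every other line and 707 were lower than in every other line, out of 12721 genes tested. The genes on the higher side included interferon-induced genes, antigen-presentation genes, collagens and adhesion receptors, annexins and S100 proteins, and inflammatory cytokines. Those on the lower side included the neuronal cytoskeleton, the chromaffin granule, nicotinic receptors and neural adhesion molecules. A gene was counted when its line mean in SK-N-AS differed by at least 1 log2 unit, in the same direction, from the line mean of each of the 4 other lines. The values were the deposited intensities as log2(value + 1), with every array centred on its own median over the tested genes, so that a difference is relative to the typical gene of each array.

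Neuroblastoma is a tumour of the sympathetic nervous system, and its cells are described in 2 states. Adrenergic cells resemble sympathetic neuroblasts and carry transcription factors such as PHOX2A, HAND2 and GATA3, with the enzymes, granules and neurites of catecholamine-making cells. Mesenchymal cells resemble migratory neural crest cells and carry matrix, adhesion and actin genes, with factors such as PRRX1, TWIST and the AP-1 and RUNX families. SK-N-AS is known as a line with mesenchymal features and without MYCN amplification, and the other lines are known as largely adrenergic.

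The series held expression arrays of SK-N-AS, KELLY, NGP, BE(2)-C and SH-SY5Y, with 3 arrays of each line and 15 in all. All lines were untreated and grown in DMEM with 10% serum. Total RNA was taken from counted cells, with synthetic ERCC control RNAs added at lysis, and 100 ng was labelled for the 3' end. SH-SY5Y and BE(2)-C are known as clonal sublines, SH-SY5Y lacks MYCN amplification, and NGP, BE(2)-C and KELLY carry it. The labels do not say that the 3 arrays of a line came from separate cultures, so the p-values measure only the spread between arrays. Each line is also a single source, and a difference between SK-N-AS and the others is one between these lines.

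The arrays of a line correlated at 0.993 or more over the tested genes, and no 2 arrays held identical values. SK-N-AS arrays correlated with those of the other lines at 0.726 to 0.785, while the other 4 lines correlated with one another at 0.852 to 0.892. The median deposited intensity of all probe sets was 123 ± 3.23 (SD, n = 3) in SK-N-AS and lay between 54.4 in SH-SY5Y and 103 in BE(2)-C in the others. The 23 background probe sets had medians of only 16.5 to 17.9 in every line, so genes printed near this level were not above background and the difference is then a limit set by the background. The brightest of the 23 had a mean of 910 in SH-SY5Y, the lowest of the lines, and 2497 in SK-N-AS, the highest. The median is therefore not an upper limit of the background. Because of the brighter SK-N-AS arrays, centring lowered SK-N-AS by 1.33 log2 units against SH-SY5Y, 0.82 against NGP, 0.20 against BE(2)-C and 1.11 against KELLY. Without centring, 1604 genes were higher (85.6% of those counted, against 50.2% with centring) and 270 were lower. All 714 higher genes and 270 of the 707 lower genes kept their call on that deposited scale, and 99 of the lower genes had the opposite sign against at least 1 line there. Leaving out the centring raised SK-N-AS against every line by the amounts above, so the differences of higher genes could only grow. A list with 0 lower members after centring could likewise gain none. For these results the deposited scale is not a further check, also where both scales are named below. The ERCC controls, added at lysis of counted cells, had line medians of 8.91 to 9.06 in log2 before centring, and making them equal gave 1764 higher and 266 lower genes, close to the deposited scale. A lower call after centring is therefore relative to the typical gene of the array and is not a statement on the amount per cell. Intensities below are deposited values, and log2 differences are on the centred scale unless named otherwise.

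The 714 higher genes were 5.61% of the genes tested and the 707 lower genes were 5.56%. These shares are what the rule itself set and are the background for every gene list below. The filter asks for a bright mean in any line, so a gene silent elsewhere is tested through SK-N-AS alone. Lists with many such members reach a larger share of higher genes among tested members than among members on the array. In the limma fit over all genes with Benjamini-Hochberg adjustment the highest adjusted p of a counted gene against any line was 0.000144 on the higher side and 0.00216 on the lower side. The genes were chosen by the same differences on the same arrays, so these p-values describe the spread between arrays and add no support to the choice. Most genes named below were chosen as the farthest, so a lack of overlap between their arrays and other lines adds none either. The same rule applied to each other line in turn gave fewer genes. It gave 120 higher and 99 lower genes for SH-SY5Y, 236 and 172 for NGP, 141 and 180 for BE(2)-C, and 135 and 116 for KELLY.

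**Figure D1:**
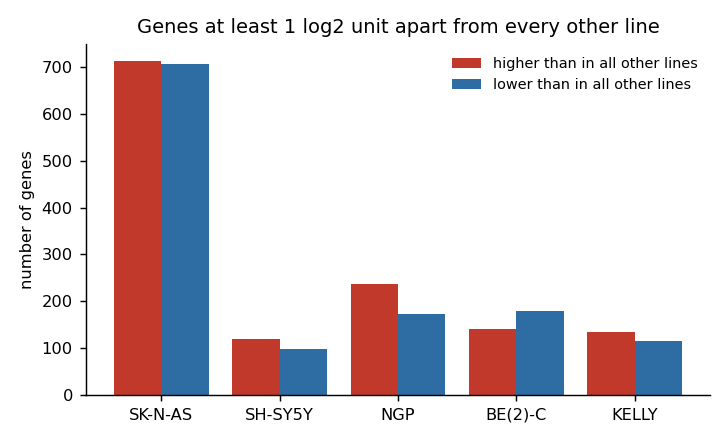
Number of genes (vertical axis) whose line mean was at least 1 log2 unit above (red) or below (blue) that of every other line, for each of the 5 lines. SK-N-AS had 714 and 707 such genes, and the highest count among the other lines was 236, in NGP.

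The distances were large for many genes. The smallest of the 4 differences had a median of 1.74 over the higher genes and -1.60 over the lower genes, and 60 higher and 46 lower genes were at least 4 log2 units from the nearest line. No other line alone set the distance: SH-SY5Y was the nearest line for 30.4% of the higher genes, KELLY for 26.9%, BE(2)-C for 23.4% and NGP for 19.3%. On the lower side BE(2)-C was nearest for 29.6%, SH-SY5Y for 25.5%, KELLY for 22.8% and NGP for 22.2%. Of the higher genes, 273 (38.2%) lay below the intensity filter of 80.6 in all 4 other lines, and 202 lay above it in all 5 lines. Of the lower genes, 369 (52.2%) lay below the filter in SK-N-AS, and 215 of these lay above it in all 4 other lines. Just inside the threshold were ABHD4 (1.001) and UBA7 (1.004) on the higher side and SYT11 (-1.004) and NSG1 (-1.006) on the lower side. Just outside were HSD17B2 (0.999), SLFN5 (0.994), PSD (-0.999) and HDHD2 (-0.997).

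**Figure D2:**
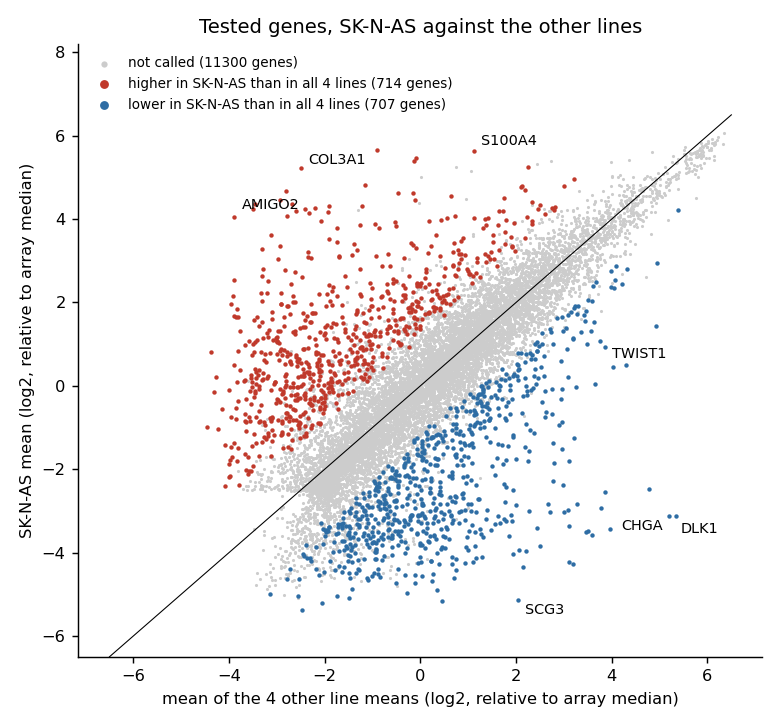
Each point is 1 of the 12721 genes tested: the horizontal axis is the mean of the 4 other line means and the vertical axis the SK-N-AS mean, both in log2 relative to the array median. Red points are the 714 higher genes, blue points the 707 lower genes and grey points all others; grey points far from the diagonal missed the rule against at least 1 line.

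The 3 genes taken as markers of SK-N-AS were the 3 genes with the largest distance on the higher side. They were named with earlier results of these data known, so their rank adds no support. AMIGO2, a neuronal and endothelial adhesion protein with leucine-rich repeats, read 7747, 7480 and 8049 on the SK-N-AS arrays, and the other 12 arrays lay between 10.6 and 21.9 with a median of 16.9. IFI16, a nuclear DNA sensor induced by interferon, read 9646, 9243 and 10004 against 12.3 to 37.8 (median 20.6). ANXA1, a calcium-dependent phospholipid-binding protein with anti-inflammatory activity, read 8721, 8707 and 9265 against 17.7 to 28.2 (median 22.0). In all 3 genes the SK-N-AS arrays lay far above every other array, and the others were near the level of the background probe sets, except that IFI16 in BE(2)-C had a mean of 36.6 ± 1.02 (SD, n = 3). The smallest differences were 7.76 for AMIGO2 (SE 0.16, KELLY nearest), 7.62 for IFI16 (SE 0.15, KELLY nearest) and 7.40 for ANXA1 (SE 0.11, SH-SY5Y nearest). The further probe sets of AMIGO2 gave smallest differences of 5.23 to 6.0, and those of ANXA1 gave 7.47 to 7.53.

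HAND2 and GATA3, markers of the adrenergic state, did not meet the rule, although the adrenergic list as a whole lay lower: 17 of its 23 tested members were below all 4 lines after centring. HAND2, a bHLH factor of sympathetic neurons, read 11596, 10805 and 12348 in SK-N-AS, within or above the 6267 to 11754 of the other arrays. Its difference from the mean of the 4 lines was -0.47 after centring and turned to 0.40 on the deposited scale, so it has no settled direction. GATA3, a zinc-finger factor of the same lineage, read 1632 to 1808 in SK-N-AS against 2179 to 3569, below every other array. It did not meet the rule because its distance from BE(2)-C was -0.61.

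The MYC family separated the lines in more than 1 way. MYCN, the oncogene amplified in 3 of the lines, read 76.0, 74.4 and 86.0 in SK-N-AS, about the filter level. Its mean was 9363 in KELLY, 9925 in NGP, 13689 in BE(2)-C and 152 in SH-SY5Y, and it was lower in SK-N-AS by the rule with differences, in this order, of -7.99, -7.78, -7.63 and -2.26. On the deposited scale the distance from SH-SY5Y was -0.92, and the rule was no longer met. Its paralog MYC read 1661 to 1917 in SK-N-AS and had a mean of 1746 in SH-SY5Y. The MYC values of these lines overlapped on the deposited scale, where they differed by 0.03, while centring put SK-N-AS 1.30 below SH-SY5Y and 4.26 to 4.97 above the amplified lines.

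Transcription factors of the mesenchymal list were higher in 10 of 29 tested members and lower in 2, with a median difference from the mean of the other lines of 0.92 against -0.10 over all genes. Of the 10, 8 had another bright probe set, and the rule was met by the mean of those sets in 5. TWIST2, a bHLH repressor of mesoderm, read 496, 504 and 498 against 15.9 to 28.8 in the other arrays (smallest difference 3.25). IRF1, an activator of interferon and antigen-presentation genes, read 744 to 806 against 43.3 to 82.0 (2.55), and RUNX1, a runt-domain factor, read 391 to 432 against 28.4 to 47.2 (2.34). NR3C1, the glucocorticoid receptor, read 1268 to 1451 and differed by at least 2.13. None of these 4 factors overlapped with any other line, which follows largely from their choice as the farthest members. The closest relative of TWIST2 went the other way: TWIST1 read 797, 967 and 915 in SK-N-AS against 2538 to 5703 (median 3647), a smallest difference of -2.73. ZEB1, a zinc-finger repressor of epithelial genes, was lower by -1.04 after centring only: its SK-N-AS readings of 1060 to 1176 exceeded the SH-SY5Y mean of 917 on the deposited scale.

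Transcription factors of the adrenergic list were higher in 0 of 23 tested members and lower in 7, with a median of -1.5. The absence of higher members holds after centring, and 1 member was higher on the deposited scale, where 6 were lower. INSM2, a zinc-finger factor of neuroendocrine cells, read 49.8, 33.3 and 41.5 against 1363 to 4276 (median 3522; smallest difference -6.42, SE 0.09), and its further probe set gave -2.57. TFAP2B, an AP-2 factor of sympathoadrenal cells, read 25.9, 17.8 and 26.4 against 828 to 6214 (-6.03, SE 0.11). SATB1, a chromatin organiser, read 38.0 to 54.2 against 413 to 1473 (-3.37), and SIX3, a homeobox factor, read 25.4 to 52.2 against 147 to 1159 (-3.04). All 4 lay below the filter in SK-N-AS. PHOX2A, the homeobox factor that switches on noradrenaline synthesis genes, was still measured in SK-N-AS at 282 to 317, against 1140 to 2556 (-2.99). ISL1 (-2.25) and HAND1 (-1.81) completed the 7.

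Genes of the chromaffin phenotype were lower in part. In catecholamine synthesis, storage and uptake 3 of 13 tested genes were lower and 0 were higher (1 on the deposited scale). DDC, which makes dopamine, read 59.3 to 69.2 against 1097 to 6244 (-4.95). DBH, which converts dopamine to noradrenaline, read 91.0 to 101 against 750 to 2653 (-3.82), and SLC6A2, the noradrenaline transporter, read 47.2 to 55.2 against 245 to 2479 (-3.20). For all 3 genes NGP was the nearest line. Among neuroendocrine granule proteins 7 of 16 were lower and 1 was higher. CHGA, chromogranin A, read 50.1, 47.2 and 62.7 against 5344 to 17488 (median 9476), a smallest difference of -7.61 (SE 0.06). SCG3, which sorts chromogranin into granules, read 11.1 to 14.4 against 494 to 2270 (-6.69), CHGB read 37.8 to 43.5 against 1458 to 6418 (-6.32), and SNAP25, a fusion protein of vesicles, read 178 to 188 against 935 to 2509 (-3.53). The exception was PAM, the enzyme that amidates peptide hormones, which read 8617, 8344 and 8934 in SK-N-AS against 397 to 1312 (2.30).

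DLK1, a membrane-bound NOTCH ligand relative of adrenal chromaffin cells, had the largest distance on the lower side. It read 54.0, 49.2 and 54.7 in SK-N-AS and 4708 to 21639 in the others (median 10273), a smallest difference of -7.88 (SE 0.05, adjusted p 6.24e-24 by limma). Of the remaining top genes on this side, NSG2, an endosomal protein of neurons, differed by -6.41. PLPPR4, a growth-cone membrane protein, differed by -5.42, and its SK-N-AS readings were 22.1 to 35.4 against 491 to 2030; its further probe sets gave -1.60 and -0.42. PHF21B, a PHD-finger chromatin protein, differed by -5.63, but its further probe sets gave only -0.72 and -1.04.

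The neuronal cytoskeleton and growth cone list had the largest share of lower members of all 30 lists: 16 of 25 tested genes were lower, 0 were higher on either scale, and the median was -3.56. MAP2, which stabilises dendritic microtubules, read 28.2, 24.3 and 20.6 against 1429 to 4837 (smallest difference -6.90). STMN2, a tubulin-binding protein of growth cones, read 73.5, 97.3 and 79.0 against 4878 to 12058 (-6.76). ELAVL4 (-6.13) and ELAVL3 (-5.76) encode neuronal RNA-binding proteins and read at most 64.6 in SK-N-AS. DCX (-5.59), a microtubule protein of migrating neurons, and CRMP1 (-5.58), which relays semaphorin signals, read 24 to 52.2 in SK-N-AS against at least 701 elsewhere. On the deposited scale 14 members stayed lower. TUBB3, TUBB2B and TUBA1A were also among the 16, and probe sets of such near-identical tubulins can share signal.

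Ion channels and adhesion molecules of neurons were lower as well. Of 16 tested nicotinic receptors and neuronal ion channels 8 were lower (5 on the deposited scale) and 0 were higher on either scale; of the 7 lower genes with another bright probe set, 4 met the rule there. CACNA2D2, a calcium-channel subunit, read 22.8 to 29.0 against 339 to 1097 (-4.48), and SCN3A, a sodium channel, read 22.4 to 28.6 against 152 to 671 (-3.64). CHRNA3, the ganglionic nicotinic subunit, remained measurable in SK-N-AS at 422 to 541 against 1406 to 6357 (-3.01), and CHRNB2 differed by -2.92. In neural adhesion and axon guidance 10 of 17 were lower (8 on the deposited scale; 6 of the 8 with another bright probe set met the rule there). CNTN1 (-5.18), CADM1 (-4.90) and NRCAM (-4.52) are immunoglobulin-type adhesion proteins, and ROBO2 (-3.38) is a Slit receptor; their SK-N-AS readings lay between 11.3 and 82.2. PLXNC1, a semaphorin receptor, was the single higher member (1.12).

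**Figure D3:**
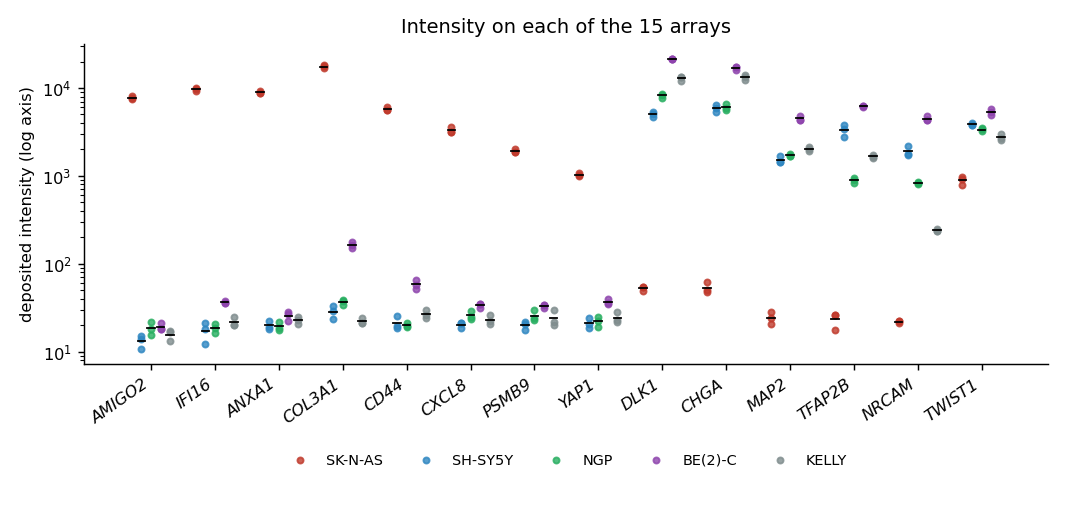
Deposited intensity (log axis) of 14 genes on each of the 15 arrays; points are arrays, coloured by line, and black bars are line means. For AMIGO2 to YAP1 the SK-N-AS arrays read 1001 or more and the others 177 or less; for DLK1 to NRCAM the SK-N-AS arrays read 62.7 or less, and TWIST1 is measured in all lines and lowest in SK-N-AS.

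Matrix and adhesion genes made up a large group on the higher side. Of 33 tested collagens and matrix glycoproteins 14 were higher and 3 lower, with a median of 1.64. COL3A1, the collagen of reticular fibres, read 18074, 16686 and 17819 against 21.3 to 177 (smallest difference 6.53, BE(2)-C nearest). LOXL2, which cross-links collagen, read 2018 to 2184 against 27.8 to 76.7 (4.73), TGFBI, a matrix protein induced by TGF-beta, read 957 to 1110 against 16.4 to 44.1 (3.78), and THBS1, thrombospondin, differed by 2.74. COL1A2, the partner chain of collagen I, was below the filter in all lines at 41.9 in SK-N-AS. The 3 lower members were SPOCK1, a proteoglycan (-2.74), FBN1, fibrillin (-2.31), and LAMA4, a laminin chain (-1.13). Only SPOCK1 also met the rule on the deposited scale. Among matrix proteases and inhibitors 10 of 21 were higher and 0 lower on either scale. TIMP1, the metalloprotease inhibitor, read 12064, 10643 and 12222 against 122 to 815 (3.68), SERPINB1, an elastase inhibitor, differed by 3.49, PLAU, urokinase, by 3.31 and ADAM9, a membrane protease, by 2.03.

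Of 25 tested integrins and surface partners 9 were higher and 2 lower. CD44, the hyaluronan receptor, read 5679, 5597 and 6031 against 18.6 to 66.0 (median 24.6), a smallest difference of 6.40. ITGA2 (3.22) and ITGA3 (3.11) are collagen and laminin receptors and read at least 826 in SK-N-AS against at most 66.0. Syndecans, the heparan sulfate proteoglycans of the surface, split: SDC4 read 4358 to 4504 against 17.1 to 359 (3.53), while SDC1 read 116 to 146 against 762 to 1714 (-3.71) and SDC2 read 483 to 588 against 928 to 1486 (-1.5). SDC2 missed the rule on the deposited scale (-0.84). In the actin and focal adhesion list 9 of 30 were higher and 0 lower on either scale. TPM2, a tropomyosin, read 1171 to 1352 against 24.5 to 62.1 (3.09). VIM, the intermediate filament of mesenchymal cells, read 16570 to 18883 against 139 to 4125 (1.90), VCL, vinculin, differed by 1.89 and PXN, paxillin, by 1.83.

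Of 18 tested annexins and S100 proteins 11 were higher, and 0 were lower on either scale; the median of 3.42 was the largest of the 30 lists. Beside ANXA1, the calcium-binding S100A16 read 6173 to 6931 against 37.7 to 224 (4.70) and S100A3 read 1428 to 1532 against 18.1 to 58.1 (3.88). S100A10, the annexin A2 partner, read 8544, 8548 and 9520 against 14.8 to 648, with BE(2)-C alone among the other lines above the filter (3.63). YAP and TEAD targets and partners had 11 of 25 higher and 0 lower on either scale. LATS2, the kinase that restrains YAP, read 767 to 926 against 12.1 to 22.4 (4.33), and YAP1 itself read 1001 to 1078 against 18.8 to 40.0 (4.22). CCN2, a matrix signalling protein, differed by 3.96 and MYOF, a membrane-repair protein, by 3.91; neither overlapped with another line. In the TGF-beta pathway 4 of 22 were higher and 0 lower on either scale: SMAD3, the signal carrier (2.08), the receptors TGFBR3 (1.97) and TGFBR2 (1.66), and the repressor TGIF1 (1.34).

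**Figure D4:**
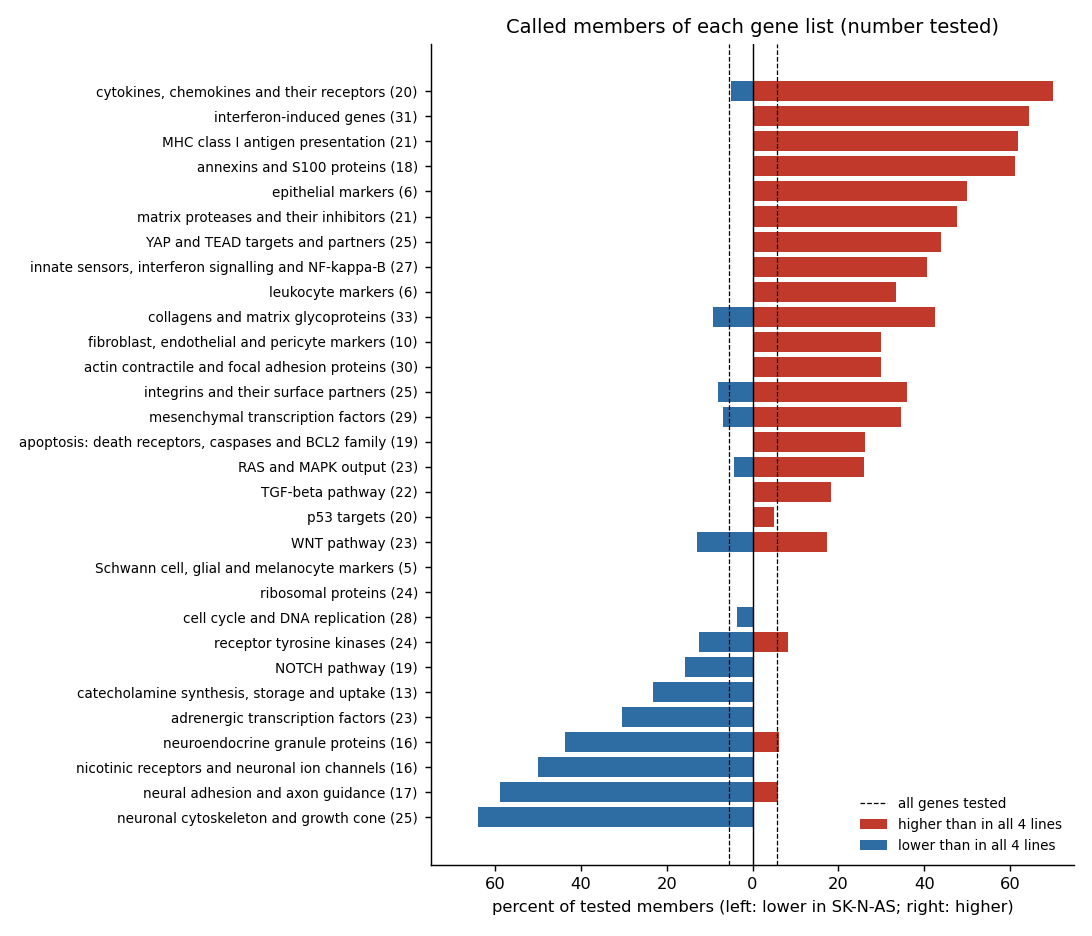
For each of the 30 gene lists, the percent of tested members that were higher (red, to the right) or lower (blue, to the left) in SK-N-AS than in all 4 other lines, with the number tested in brackets. Dashed lines mark the shares over all genes, 5.61% and 5.56%. The neuronal cytoskeleton list reaches farthest to the left and the cytokine list farthest to the right. A member bright in SK-N-AS alone passes the filter, so the shares of tested members depend on the filter.

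Interferon-induced genes were higher in 20 of 31 tested members and lower in 0 on either scale, with a median of 2.50. IFITM3, which blocks viral entry, read 10066, 8553 and 10167 against 27.8 to 62.8 (smallest difference 6.92), and its relative IFITM2 differed by 5.40. BST2, which tethers budding virus, read 7971, 7367 and 8294 against 16.2 to 80.1 (6.45). All were far outside the range of the other lines; the IFITM probe sets may share signal between these near-identical genes. The summed intensity of the 36 genes of the list lay between 51607 and 57692 on the SK-N-AS arrays and between 2070 and 5722 elsewhere. Some members were not brought into the test: MX1 and RSAD2, classical antiviral effectors, read 80.6 and 39.4 in SK-N-AS, at or below the filter.

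Of 21 tested MHC class I genes 13 were higher and 0 lower on either scale (median 1.98). The immunoproteasome subunits PSMB9 and PSMB8, which cut proteins into peptides for presentation, read 1850 to 2000 against 17.6 to 34.4 (5.17) and 3031 to 3310 against 19.7 to 98.0 (4.87). TAP1, the peptide transporter, read 1096 to 1221 against 21.2 to 55.8 (4.23), and HLA-B, a presenting heavy chain, read 3248 to 3541 against 101 to 243 (3.58). Among the HLA genes a probe set can bind several near-identical members, so single HLA values are uncertain; PSMB9 and TAP1 are not of that family. IRF1, already named, is also in this list.

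To show the sequence next to these readings, the interferon-stimulated response element, a site bound by interferon regulatory factors, was searched as GAAANNGAAA on both strands in the 250 bases before each RefSeq start (GRCh38.p14). Matching by symbol found such a sequence for 28 of the 33 higher genes of the interferon and MHC class I lists together, and 14 of these (50%) held the element. So did 10 of 16 (62.5%) tested members of the same lists that were not counted, 3.2% of all tested genes with a sequence (332 of 10408) and 3.7% of all 27305 genes of the table. Among all 714 higher genes it was in 41 of 546 (7.5%) and among the 707 lower genes in 20 of 565 (3.5%). The 4 sequences below belong to the higher genes of these lists that hold it and lie farthest from the other lines, 5' to 3' on the gene's strand, with the element in capitals (overlapping copies run together).
IFITM3: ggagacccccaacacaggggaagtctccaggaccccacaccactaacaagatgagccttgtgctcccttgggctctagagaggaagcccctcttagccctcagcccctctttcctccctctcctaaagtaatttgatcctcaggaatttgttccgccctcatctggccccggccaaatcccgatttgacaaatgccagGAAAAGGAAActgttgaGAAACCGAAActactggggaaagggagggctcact
BST2: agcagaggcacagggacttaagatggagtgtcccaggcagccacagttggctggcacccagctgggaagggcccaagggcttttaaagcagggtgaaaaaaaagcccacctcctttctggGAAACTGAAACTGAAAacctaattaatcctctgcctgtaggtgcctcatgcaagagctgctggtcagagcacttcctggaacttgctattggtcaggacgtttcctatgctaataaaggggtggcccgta
PARP14: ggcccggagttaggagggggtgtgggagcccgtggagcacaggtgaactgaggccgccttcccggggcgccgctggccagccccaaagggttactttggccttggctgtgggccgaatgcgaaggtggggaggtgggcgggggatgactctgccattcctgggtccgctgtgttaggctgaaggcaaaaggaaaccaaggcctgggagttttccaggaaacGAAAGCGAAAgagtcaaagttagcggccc
TAP1: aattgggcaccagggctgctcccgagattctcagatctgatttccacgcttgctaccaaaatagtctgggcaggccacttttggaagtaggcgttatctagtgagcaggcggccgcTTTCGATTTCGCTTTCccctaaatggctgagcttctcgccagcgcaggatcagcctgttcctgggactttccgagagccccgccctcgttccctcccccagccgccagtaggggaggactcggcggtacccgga
They lie at chr11:320861-321110 (minus strand), chr19:17405631-17405880 (minus strand), chr3:122680589-122680838 (plus strand) and chr6:32853705-32853954 (minus strand), each directly upstream of the gene's start. Counted in bases from the start, the element begins at -52 and -35 in IFITM3, at -130 and -124 in BST2, at -29 in PARP14 and at -134 and -128 in TAP1. PARP14, an ADP-ribosyltransferase of the same list, read 1142 to 1369 in SK-N-AS against 10.4 to 55.8 (4.36). A match describes these letters only.

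Other elements were searched the same way over all higher genes. The AP-1 site TGANTCA was in 13.4% of the higher genes, 5.7% of the lower genes and 6.0% of the tested genes. The TEAD site GGAATG was in 18.9%, 12.7% and 12.9%. The AP-1 and TEAD letters were more frequent among higher than among lower genes in this window, as a description without a test.

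Sensors and signalling genes of innate immunity were higher in 11 of 27 tested members and lower in 0 on either scale. TLR3, the endosomal sensor of double-stranded RNA, read 211 to 264 against 7.37 to 16 (3.0), and IFIH1, the cytosolic one, read 174 to 274 against 8.27 to 17.4 (2.66). NFKBIA, the NF-kappa-B inhibitor and target, read 6441 to 7072 against 400 to 1368 (2.18), and IRF9, an interferon regulatory factor, differed by 2.02. CGAS, the cytosolic DNA sensor, was below the filter in all lines, at 38.1 in SK-N-AS.

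Cytokines, chemokines and their receptors had the largest share of higher members among tested genes, 14 of 20, and 1 lower. This rank depends on the filter, which a gene passes when bright in SK-N-AS alone. Of the genes on the array 14 of 25 were higher, against 13 of 22 for MHC class I and 11 of 19 for annexins and S100 proteins. By that count the cytokine list did not rank first. CXCL8, the neutrophil chemokine, read 3167, 3140 and 3564 against 18.8 to 35.1 (median 24.3; smallest difference 5.93), and CXCL2 read 1319 to 1452 against 14.8 to 32.8 (4.46). TNFRSF11B, the RANKL decoy receptor, differed by 3.79 and IL13RA1, a receptor chain for IL-13, by 3.73. None of the 4 overlapped with another line, and in the other lines all 4 were below the filter. CXCR4, the CXCL12 receptor, was lower (-1.31) at 35.7 to 41.1 in SK-N-AS, but missed the rule on the deposited scale (-0.77). IL6 was below the filter in all lines, at 50 in SK-N-AS. In the apoptosis list 5 of 19 were higher and 0 lower on either scale. CASP8, the initiator caspase of death receptors that is often silenced in neuroblastoma, read 397, 416 and 422 against 34.3 to 64.6 (1.96). CASP6, an executioner caspase (1.92), CFLAR, the inhibitor of CASP8 (1.82), and FAS, a death receptor (1.28), were higher too.

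Growth factor signalling showed smaller counts. Of 24 receptor tyrosine kinases 2 were higher, EPHA2 (1.51) and AXL (1.14), and 3 were lower. With so few genes, these counts are close to the shares over all genes, 5.61% and 5.56%. The list median was -0.06 against -0.10 over all genes. ALK, the kinase mutated or amplified in part of neuroblastoma, read 38.3, 33.4 and 30.7 against 200 to 515 (-2.95). ROR2, a WNT5A receptor (-1.57), and FGFR2, an FGF receptor (-1.27), were lower after centring, and neither met the rule on the deposited scale. In RAS and MAPK output 6 of 23 were higher: EMP1, an epithelial membrane protein, read 1484 to 1686 against 19.1 to 45.0 (4.76). The early-response gene IER3 read 18028 to 20863 against 20.4 to 1478 (3.49), SPRY1, a feedback inhibitor of the pathway, differed by 3.46, and PHLDA2 by 3.10. EGR1, the early growth response factor, was the single lower member (-1.66; -0.54 on the deposited scale).

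In the WNT pathway 4 of 23 were higher and 3 lower; of the 3 higher genes with another bright probe set, 1 met the rule there. WNT5A, a non-canonical ligand, read 1267, 1040 and 1107 against 13.1 to 57.6 (3.60), with RSPO3, an amplifier of WNT signalling (1.74), FZD6, a receptor (1.35), and DKK3 (1.18). PRICKLE1, a planar polarity protein, was lower at -2.56; WNT11 (-1.01) and FZD3 (-1.09) were lower after centring, with differences of 0.33 and 0.16 in the other direction from the nearest line on the deposited scale. In the NOTCH pathway 0 of 19 were higher (1 on the deposited scale) and 3 lower: DLK1, NOTCH4, a receptor (-1.60), and HES6 (-1.19). HES6, a neurogenic bHLH factor, had SK-N-AS readings of 522 to 546 that reached the lowest other reading of 545, and DLK1 alone met the rule on the deposited scale.

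Gene groups of general cell function had few counted genes, but many of their members lay slightly lower. Below all 4 lines after centring, with no distance asked, were 19 of 24 ribosomal protein genes and 14 of 28 cell cycle genes, against 4162 of all 12721. Of 28 cell cycle and replication genes 1 was lower, CDT1, a licensing factor (-1.20), which had the opposite sign against SH-SY5Y on the deposited scale (0.13). Of 20 p53 targets 1 was higher, FAS, which is close to the share of 5.61% over all genes. Of 24 ribosomal protein genes 0 were counted in either direction on either scale, with a median of -0.27; RPS3 (mean difference -0.81) and RPS6 (-0.65) had the largest. These differences are relative to the typical gene. On the deposited scale the SK-N-AS mean of RPS3, 14978, exceeded the mean of 9851 in SH-SY5Y. That line had the dimmest arrays (median intensity 54.4), so this does not speak for the other lines.

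Markers of other cell types were read in the same arrays. Of 15 epithelial markers on the array 6 were tested and 3 higher: KRT18, a keratin of simple epithelia (8729, 8043 and 9035 against 30.5 to 58.4; 6.57), its partner KRT8 (3.76) and CLDN4, a tight-junction protein (2.20). The defining markers EPCAM (16.8) and CDH1 (34.5) were below the filter in SK-N-AS, and the summed level of the list was 11258 to 12433 in SK-N-AS and 583 to 1276 elsewhere. Of the 15 markers, 9 lay below the filter in SK-N-AS and 11 to 14 in each other line. KRT18, for example, was tested through SK-N-AS alone, so 3 of 6 cannot be set beside the share over all genes. Of 15 leukocyte markers 6 were tested and 2 higher, PTPRC, the CD45 phosphatase (3.02), and CD68, a lysosomal protein (2.51), while CD3D (33.9), CD14 (49.7) and LYZ (17.7) were below the filter. The summed leukocyte level was 1561 to 1737 in SK-N-AS and 441 to 773 elsewhere. In SK-N-AS 10 of the 15 leukocyte markers lay below the filter, and 13 to 15 in each other line, so the same limit holds for 2 of 6. Of 16 fibroblast, endothelial and pericyte markers 10 were tested and 3 higher: FLT1, a VEGF receptor (3.24), S100A4 (2.65) and CSPG4, a proteoglycan of pericytes (1.15). FAP (58.8) and KDR (77.2) were below the filter, with summed levels of 43323 to 49710 against 11301 to 28465. All summed levels are of deposited intensities and include the greater brightness of the SK-N-AS arrays. Centred means of the tested members of this last list were 0.02 in SK-N-AS and -1.05 to -0.28 elsewhere.

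Of 12 Schwann cell, glial and melanocyte markers 5 were tested and 0 counted in either direction after centring (1 higher on the deposited scale); S100B had a mean difference of -1.26 and MITF, the melanocyte master factor, one of 1.22. The summed level was 1099 to 1186 in SK-N-AS and 426 to 1042 elsewhere. TYRP1, a melanocyte enzyme outside the list, was among the top genes at 11478, 11636 and 12771 against 11.6 to 126 (5.79), whereas TYR (82.3, the mean of its log2 values being below the filter) and MLANA (32.4) did not pass the filter in SK-N-AS. The part of these markers in the other results was not tested.

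The remaining genes among the 15 farthest on the higher side belong to no common list. TM4SF1 and TM4SF4, tetraspan membrane proteins, differed by 6.80 and 6.29, with SK-N-AS readings of at least 9543 and 4416 against at most 80.6 and 38.3. BNC1, a zinc-finger factor of basal keratinocytes, differed by 5.86 and NNMT, which methylates nicotinamide, by 5.79. CTAG2, a cancer-testis antigen on the X chromosome, read 7502, 6731 and 7626 against 40.9 to 78.9 (5.57), and its probe set may also bind the near-identical CTAG1 genes.

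Along the genome, the counted genes were unevenly spread. Chromosome 8 had the largest share of higher genes, 63 of 460 tested (13.7%, against 5.61% over all), with a share of lower genes of 4.78%. The median difference of its genes was 0.38, against -0.10 over all genes, and was positive against each line, at 0.38 for SH-SY5Y, 0.31 for NGP, 0.47 for BE(2)-C and 0.33 for KELLY. In the other direction, chromosome 17 had the lowest median, -0.30, with 2.50% of its genes higher and 6.04% lower. Other chromosomes were close to it: chromosome 3 had a median of -0.27 and 7.40% lower. Chromosome 22 had a median of -0.22 and the smallest share of higher genes, 1.85%. The largest share of lower genes was on chromosome 13 (20 of 213, 9.39%). On chromosome 17 the genes were cut into 10 runs of nearly equal size in reference order: the first 4 runs had medians of -0.66 to -0.47 and the later runs -0.28 to -0.01. These shares are descriptions; DNA copy number was not measured in these samples.

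**Figure D5:**
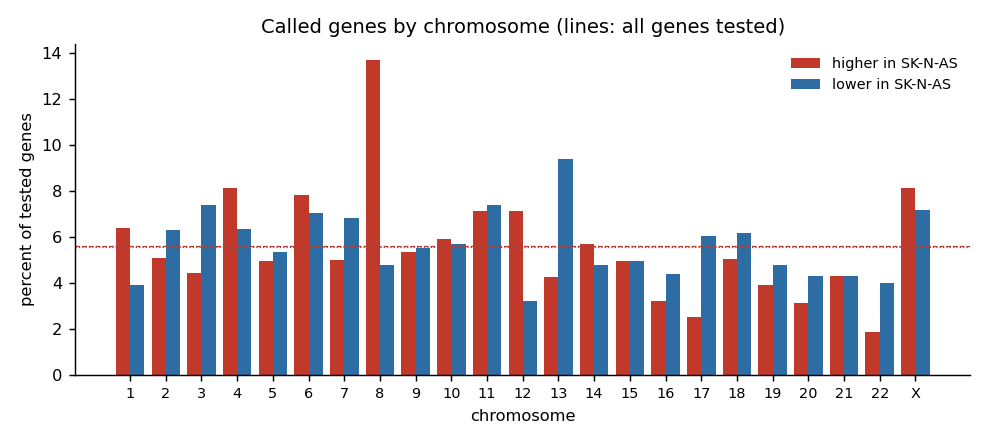
Percent of the tested genes of each chromosome that were higher (red) or lower (blue) in SK-N-AS than in all 4 other lines; the dashed and dotted lines, nearly on top of each other, are the shares over all genes. Chromosome 8 stands out at 13.7% higher and chromosome 13 at 9.39% lower.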

How the data were processed

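The values were intensities per probe set from the deposited series value table, linear and positive; the submitters' processing notes name MAS5, with background correction and scaling not given in the sources used here. The authors' deposited intensities were taken as log2(value + 1). Of 49494 probe sets, 45277 had 1 gene in the platform annotation, 1333 several, 2682 none and 202 were controls. The brightest probe set (highest mean log2) stood for each of 18244 genes, and 12721 passed the filter (a line mean of at least log2 6.35, the median of all values, an intensity of 80.6 after back-calculation). Arrays were centred on their median over these genes. limma 3.58.1 (R 4.3.3) fitted 1 mean per line over all 15 arrays, with an intensity trend, and gave 4 contrasts with Benjamini-Hochberg adjustment. Members and gene lists were chosen with earlier results of these data known. Named genes were the 15 farthest on each side, the 2 to 4 farthest of each list, the cell type markers and the genes at the threshold; other names were chosen after their values were seen. The calling step was tested on simulated data. Promoter sequences and their build came from RefSeq. Python 3.11.15 made the counts and figures.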

Additional observations from a re-analysis of the deposited data

How the results depend on the processing

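The scaling decided the balance of the counts. On the deposited scale 1604 genes were higher and 270 lower, with ERCC medians made equal 1764 and 266, and with a difference of at least 2 there were 292 and 255. In the remaining alternatives the counts stayed within 1.5 times: 811 and 579 with the median over all probe sets, 751 and 614 with quantile normalization, 661 and 652 with a pseudocount of 16, 569 and 615 with low values raised to the filter, 804 and 627 without a filter, 605 and 546 with the stricter filter, 626 and 514 with all probe sets of a gene averaged, and 630 and 611 without probe sets that may bind several genes. Leaving out 1 array gave 707 to 723 higher and 692 to 722 lower genes, and leaving out 1 other line 777 to 886 and 792 to 988. Leaving out a line drops a condition of the rule, so it could only add genes. The replicate block gave 714 and 707, as did the fit without the intensity trend. Both settings leave the line-mean differences as they are. No gene past the distance failed on its p-value, so these settings could hardly move the counts. Same-numbered arrays deviated together at r of -0.227 to 0.234 and differently numbered arrays at -0.228 to 0.370. Of 15 arrays 6 correlated best with their own number, so no clear pairing by number was seen. Among named genes HAND2 turned to 0.40 on the deposited scale, MYCN (-5.55 there) lost its call, and PHF21B (-1.13) lost its call with its other probe sets; the cause was not tested. With other probe sets the difference from the mean of 4 lines was also over 1.5 times smaller for PLPPR4 (-1.38), INSM2 (-3.11), CHGB (-3.76), NSG2 (-4.25), ELAVL3 (-4.03), DCX (-4.10), CRMP1 (-4.24) and BNC1 (4.23). Of the counted genes with another bright probe set, 369 of 472 higher and 297 of 423 lower genes had at least 1 such probe set past the threshold. All such probe sets were past it in only 287 higher and 207 lower genes. Of the probe sets themselves, 738 of 1055 and 520 of 874 were past it, and 997 and 846 kept the sign against all 4 lines. Of the 60 list counts (30 lists, both directions), 40 stayed within 1.5 times on the deposited scale. There the higher members went from 9 to 14 for integrins, 4 to 7 for TGF-beta, 2 to 5 for receptor kinases, 6 to 10 for RAS and MAPK output, 1 to 5 for p53 targets and 1 to 2 for granule proteins; the lower members went from 8 to 5 for ion channels and, in the 9 other lists that moved, to 1 or 0. With each gene's other probe sets, which not every gene has, 44 stayed. Higher members went from 10 to 6 for mesenchymal factors, 20 to 12 for interferon-induced genes (11 of the 12 counted genes with another set met the rule), 11 to 7 for innate sensors (6 of 6), 4 to 1 for WNT, 1 to 2 for p53 targets, 2 to 1 for leukocyte markers and 1 to 0 for neural adhesion. Lower members went from 8 to 4 for ion channels, 10 to 6 for neural adhesion, 3 to 1 each for catecholamine, collagen, NOTCH and WNT genes, 2 to 0 for mesenchymal factors, 1 to 0 for cell cycle and 0 to 1 for ribosomal proteins. Low signal limits genes near the background probe sets.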

Other observations

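Further groups on the higher side were noticed after the values were seen and are given as values only. Of 13 tested complement genes 7 were higher and 1 lower. The classical-pathway proteases C1R (4855 to 5524 in SK-N-AS against 47.0 to 148; smallest difference 4.94) and C1S (4.52), the central component C3 (4.80), and the alternative-pathway genes CFB (3.69) and CFI (4.84) were among them, with the surface inhibitors CD55 and CD59. C7, of the membrane attack complex, was lower (-1.39), with 19.0 in SK-N-AS, 28.7 in NGP and 23.8 in KELLY near the background, and 2850 in SH-SY5Y. All 5 tested guanylate-binding protein genes were higher, GBP1 by 3.89, and AIM2, a cytosolic DNA sensor, read 2006, 2077 and 2128 against 11 to 22.6 (5.49).

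Of 13 tested cancer-testis antigen genes, which are normally read in germ cells, 8 were higher and 0 lower. MAGEB2 read 2780 to 3100 against 15.4 to 41.8 (5.35), MAGEA11 differed by 5.18, LY6K by 4.96 and PASD1 by 4.49; probe sets of near-identical MAGE genes may share signal. A pair of oncofetal RNA-binding proteins went opposite ways: IGF2BP2 read 1418, 1500 and 1608 against 14 to 20 (5.05), and LIN28B read 23.6, 27.7 and 31.2 against 221 to 1822 (-4.43).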
